A study of Bos taurus with 129 samples.

Results

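Whole blood of cattle with bovine respiratory disease (BRD) was compared between day 28 and day 13 of a 60-day feeding study. The members were the libraries of these days from animals labelled as having the disease, which gave 28 libraries from 14 animals with both days, out of 70 libraries of BRD cattle and 59 of healthy cattle in the series (26 animals in all). Each animal served as its own control. The cattle were crossbred beef steers bought at market, whose ages and earlier histories are not given in the sources used here. BRD is the pneumonia complex of newly transported cattle. The day of diagnosis and the drugs given are not stated in these sources, so the interval from illness to either sampling is unknown. All steers, diseased or not, received on day 0 doramectin and a vaccine against the main respiratory viruses of cattle and bovine viral diarrhea virus, and the vaccine was repeated on day 21, between both samplings. Liver biopsies were taken on days 0 and 28. Of the 14 animals, 4 received amino acid-complexed copper, cobalt, manganese and zinc (AAC), 3 received the same plus a mineral drench (COMBO), given also with any treatment for illness, and 7 received sulfate minerals (INR). Pens were rotated every 14 days. The numbers of the libraries run by day, so that time, age, the second vaccination, recovery and handling cannot be told apart.

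Blood RNA is a mixture from red cell precursors, platelets, granulocytes, monocytes and lymphocytes. Cattle differ from humans and mice in the size of their gamma-delta T cell pool, which is large in the blood of young ruminants. These cells carry a receptor of a gamma and a delta chain in place of the alpha and beta chains. The gamma chain's constant part is encoded by several similar TRGC genes, each with its own variable and joining segments. Many bovine gamma-delta T cells also carry WC1 molecules, scavenger receptor family members that act as co-receptors.

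Total counts ranged from 34928094 to 54306034 per library (median 40392847 at day 13 and 46575253 at day 28). Libraries correlated with the median of their day at r = 0.969 or more. The lowest correlation was that of animal 21 at day 13. By median absolute log2 deviation, the day 28 libraries of animals 54 (0.364) and 40 (0.326) lay farthest, against 0.173 for the median library. At day 13 animal 40 had 0.284 and animal 54 had 0.182. Defining markers of blood were present on both days: the summed level of the T cell markers CD3D, CD3E and CD3G had medians of 631 and 634 CPM (counts scaled by library size) at days 13 and 28, and that of the monocyte markers CD14, CSF1R and CD163 had medians of 364 and 362 CPM. Globin and collagen genes varied between animals far more than these.

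Of 16153 genes tested by edgeR's quasi-likelihood F-test with the animal as a block, 30 were called at a false discovery rate (FDR) under 0.10, which is 0.186% of the genes. Of these, 28 were higher at day 28 (0.173%) and 2 were lower (0.0124%). The 28 higher genes rose by 0.28 to 1.71 on the log2 scale (median 1.09), and each was higher in at least 12 of 14 animals, 16 of them in all 14. Most were of low abundance, with a median over these genes of 4.81 CPM at day 13. Leaving out animals 40 and 54, a choice made after seeing the data, gave 77 calls (59 higher and 18 lower), of which 27 were among the 30. Leaving out animal 16, animal 31 or animal 41 alone gave 15 calls each, and a filter of at least 1 CPM in 14 libraries gave 20. At an unadjusted p under 0.05 there were 1257 genes (7.78%). DESeq2 called 198 genes, 81 of them lower, and limma with voom called 33, and all 30 were among the calls of both.

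The 3 genes of smallest p were T cell receptor gamma constant genes. TRGC3 was measured at 10.3 to 59.4 CPM at day 13 (median 27) and at 27.1 to 114.04 CPM at day 28 (median 54.4). The ranges overlapped, yet 5 of the day 28 libraries lay above all those of day 13 and 7 of the day 13 libraries lay below all those of day 28. TRGC3 rose by 1.08 ± 0.11 on the log2 scale (SE, 14 animals, FDR = 0.00068) and was higher in 14 of 14 animals. TRGC4 ran from 7.25 to 41.9 CPM (median 15.1) at day 13 and from 17.9 to 62.3 CPM (median 33.6) at day 28. It rose by 1.05 ± 0.11 (FDR = 0.000897), again in 14 of 14. TRGC6 ran from 9.97 to 49 CPM (median 24.2) at day 13 and from 27 to 98.418 CPM (median 50.2) at day 28. Its rise of 1.24 ± 0.14 (FDR = 0.000897) was likewise seen in each animal. These constant genes are near-identical in part, so the division of reads among them is uncertain.

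**Figure D1:**
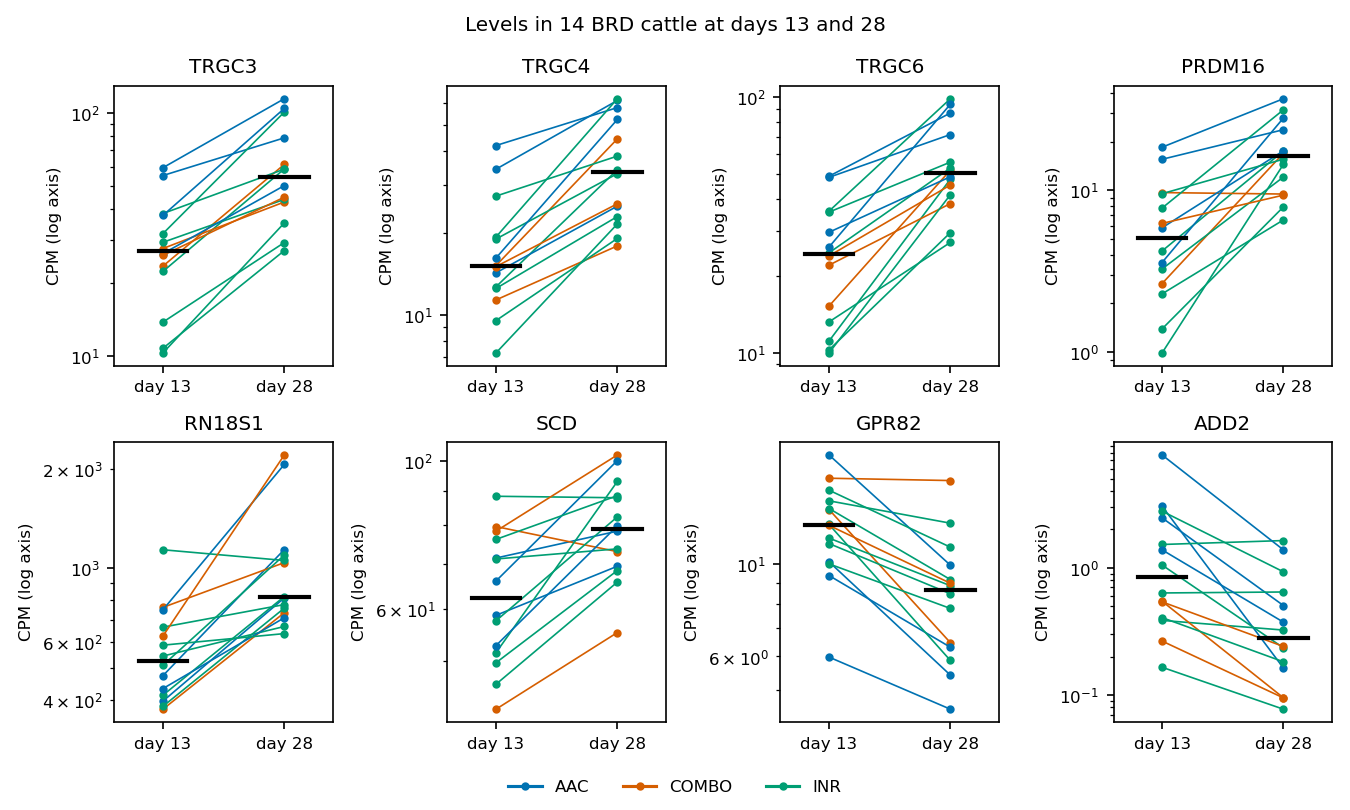
Levels of 8 genes in each of the 14 BRD cattle at days 13 and 28, in CPM on log axes. Each line is 1 animal coloured by supplement and black bars are medians; TRGC3, TRGC4 and TRGC6 rose in all 14 animals and GPR82 fell in all 14, while the ranges of the days overlap in every panel.

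In RefSeq (assembly ARS-UCD2.0, a later build than the one the authors mapped to), TRGC3 and TRGC4 neighbour each other, whereas TRGC6 lies in a separate cluster on the same chromosome with the pseudogene LOC112446377 and with TARP, which RefSeq also lists as TRGC1. LOC112446377 was called as well, at 0.142 to 1.81 CPM (median 0.816) at day 13 and 0.935 to 3.31 CPM (median 1.69) at day 28. Its rise was 1.1 ± 0.20 (FDR = 0.0596), with higher values in 14 of 14 animals. TARP, named after its values were seen, was near the limit of detection at day 13 (0 to 1.66 CPM, median 0.0350) and reached 10.9 CPM at day 28 (median 1.19). The fitted change was 2.78 ± 0.68 with higher values in 12 of 14 animals, and it did not pass the threshold (FDR = 0.238). DESeq2 gave TARP an adjusted p of 0.000278.

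The gamma-delta T cell list, which does not hold the called TRGC genes, did not rise as a set. Of 21 listed genes, 13 were tested and edgeR called 0. At an unadjusted p under 0.05, 1 of the 13 was higher and 4 were lower, against 3.7% and 4.08% of all genes. The 13 had a median log2 change of -0.13, with 10 of 13 below 0, against a median of -0.00036 over all genes tested. WC1.3, a WC1 co-receptor, was measured at 114.3 to 497 CPM (median 215) at day 13 and 95.6 to 454 CPM (median 188) at day 28, a change of -0.19 ± 0.08 (FDR = 0.567). WC1-12 gave -0.24 ± 0.11 (FDR = 0.630). SOX13, a transcription factor of the WC1-bearing lineage, gave -0.22 ± 0.08 (FDR = 0.50). ID3, an inhibitor of E protein transcription factors, gave 0.40 ± 0.10 with higher values in 12 of 14 animals (FDR = 0.239), and was called by DESeq2 (adjusted p = 0.0253), the only member of the list that DESeq2 called, but not by limma with voom. For WC1.3, WC1-12 and SOX13 the ranges of both days overlapped widely. In these bulk samples more cells of a type and more RNA per cell cannot be told apart.

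Several of the other called genes moved with TRGC3 from animal to animal. OGN, which encodes the small proteoglycan osteoglycin, ran from 2.74 to 37.6 CPM (median 10.1) at day 13 and from 8.30 to 52.7 CPM (median 24.3) at day 28, and rose by 1.34 ± 0.21 (FDR = 0.0203) in 14 of 14 animals. PRDM16, a zinc finger transcriptional regulator, ran from 0.989 to 18.5 CPM (median 5.05) and then from 6.57 to 36.9 CPM (median 16.3), a rise of 1.68 ± 0.28 (FDR = 0.0228) in 13 of 14. SLC45A3, a member of the sugar transporter-like SLC45 family, had medians of 2.86 and 7.40 CPM and rose by 1.2 ± 0.23 (FDR = 0.0670) in 12 of 14. With each animal left out in turn SLC45A3 was called in 3 of 14 fits, with FDR up to 0.163. For all 3 genes the day 13 and day 28 ranges overlapped, and the highest day 13 library for each was that of animal 21.

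The change in TRGC3 was correlated with that of each of the other 29 called genes, and of HBB and COL1A1, over the 14 animals (31 relations, TRGC3 chosen after its values were seen, permutation tests with Benjamini-Hochberg adjustment). TRGC4 (r = 0.932, rho = 0.952) and TRGC6 (r = 0.871, rho = 0.824) followed it most closely. OGN gave r = 0.855 (adjusted permutation p = 0.0026) and rho = 0.851 (adjusted permutation p = 0.0045), PRDM16 gave r = 0.842 (0.00256) and rho = 0.793 (0.00794), and SLC45A3 gave r = 0.833 (0.00256) and rho = 0.815 (0.0062). In all, 12 of the 29 genes had an adjusted p under 0.05 for r and 8 had it for both coefficients. Both counts include TRGC4 and TRGC6, whose reads cannot be divided with certainty from those of TRGC3, and the pseudogene LOC112446377 of the TRGC6 cluster. The part of read division in their relation with TRGC3 was not tested. Without animals 23 and 27, which had the changes in TRGC3 farthest from the median, r for the 12 genes was 0.464 to 0.910. Within the 7 INR animals it was 0.328 to 0.920, and AAC and COMBO held too few animals. Outside the 12 genes, r in INR animals ran from -0.722 for SCD to 0.971 for ADD2, with HBB at 0.798. HBB, the beta-globin gene, gave r = 0.595 (adjusted permutation p = 0.0549) and rho = 0.552 (0.0844), and COL1A1, a collagen gene, gave r = 0.0420 (0.887) and rho = -0.0330.

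Osteoglycin is also made by connective tissue, so collagen levels are given beside it. COL1A1 and COL3A1, with DCN, summed to 0.175 to 2215 CPM at day 13 (median 5.54) and 0.157 to 606 CPM at day 28 (median 13.5), and the highest library on both days was that of animal 21. The part of connective tissue in the change of OGN was not tested. OGN remained called in each of the 14 fits that left out 1 animal, with FDR from 0.0148 to 0.0561.

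**Figure D2:**
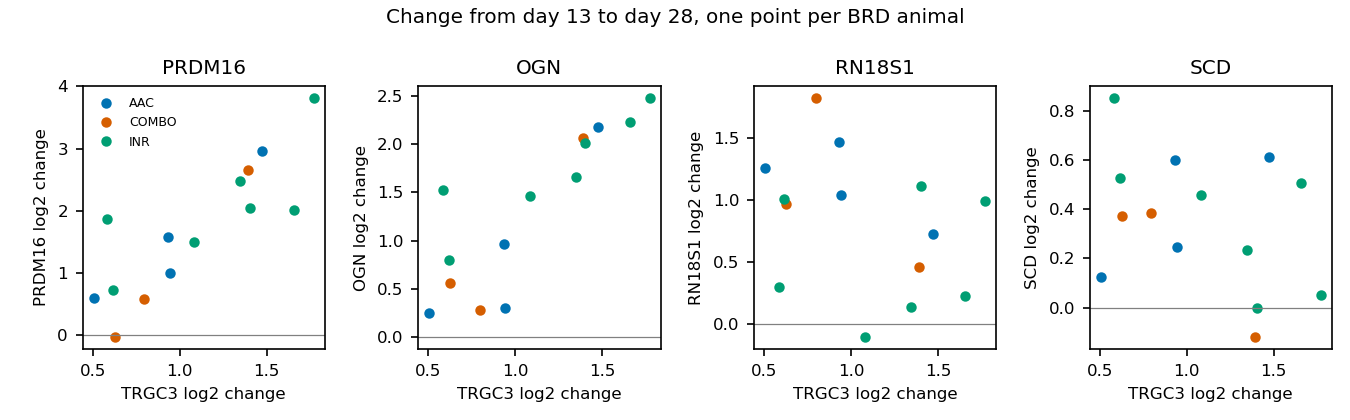
Log2 change from day 13 to day 28 of PRDM16, OGN, RN18S1 and SCD (vertical axes) against that of TRGC3 (horizontal axes), 1 point for each of the 14 BRD cattle, coloured by supplement. PRDM16 (r = 0.842) and OGN (r = 0.855) rose more in animals in which TRGC3 rose more, whereas RN18S1 (r = -0.335) and SCD (r = -0.363) had no such relation that passed the test.

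FCRL6, an Fc receptor-like protein found on cytotoxic lymphocytes, had the largest fold change among the called genes. It ran from 0 to 2.77 CPM (median 0.672) at day 13 and from 1.13 to 5.42 CPM (median 1.90) at day 28, with 11 of the 14 day 13 libraries below all those of day 28. It rose by 1.71 ± 0.28 (FDR = 0.0228) in 14 of 14 animals. Genes of the NK and cytotoxic lymphocyte list did not share that change: 26 of 31 were tested, 0 were called by edgeR, DESeq2 or voom, and their median was -0.05. At an unadjusted p under 0.05, 1 was higher and 1 lower, against 3.7% and 4.08% of all genes. GZMB, the protease granzyme B, gave -0.35 ± 0.16 (FDR = 0.630), and the killing protein gene PRF1 gave -0.08 (FDR = 0.900).

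Several higher genes are better known from other tissues. ZP3, an egg coat glycoprotein gene, separated the days most clearly: it lay at 1.94 to 6.73 CPM at day 13 (median 4.99) and 6.21 to 12 CPM at day 28 (median 8.35), and 12 of the 14 day 28 libraries were above all those of day 13. It rose by 0.83 ± 0.12 (FDR = 0.0144) in 14 of 14. AMZ1, a metalloprotease gene, rose by 1.34 ± 0.21 (FDR = 0.0213) in 14 of 14, from a median of 0.793 to 1.67 CPM. CTXN1, which encodes the small membrane protein cortexin, had medians of 0.537 and 1.60 CPM and rose by 1.13 ± 0.16 (FDR = 0.0110) in 14 of 14. COX6B2, a subunit isoform of cytochrome c oxidase best known from testis, rose by 1.16 ± 0.19 (FDR = 0.0228) in 14 of 14, from 0.453 to 0.847 CPM. LZTS1 rose by 1.52, and MOBP, SLIT1 and DCLK1, best known from the nervous system, rose by 1.37, 1.38 and 1.29. LZTS1 and these genes had medians from 0.361 to 0.422 CPM at day 13. With each animal left out in turn, LZTS1 and MOBP were called in 10 of 14 fits, SLIT1 in 9 and DCLK1 in 8.

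More abundant higher genes included FSCN1, which encodes the actin-bundling protein fascin. It ran from 11.2 to 58.172 CPM (median 27) at day 13 and from 18.3 to 64.1 CPM (median 39.7) at day 28, and rose by 0.66 ± 0.12 (FDR = 0.0599) in 14 of 14 animals. KIAA1324L rose by 0.75 ± 0.14 (FDR = 0.0599) in 13 of 14, from a median of 7.21 to 12.8 CPM. FLVCR2, a membrane transporter of the FLVCR family, rose by 0.64 ± 0.12 (FDR = 0.0649) in 13 of 14. DAB2IP, which restrains Ras signalling, was of low abundance, with medians of 1.13 and 1.55 CPM. It rose by 0.62 ± 0.12 (FDR = 0.0670) in 12 of 14. PIK3R3, a regulatory subunit of phosphoinositide 3-kinase, rose by 0.28 ± 0.06 (FDR = 0.0991) in 13 of 14. Of the 3 called genes without a symbol beyond those of ribosomal RNA and TRGC loci, LOC112448447 rose by 0.51 ± 0.08, LOC100847951 by 1.02 ± 0.20 and LOC101903668 by 0.71 ± 0.14, the first pair annotated as long non-coding RNA in RefSeq. Their medians at day 13 were low, at 1.81, 1.98 and 3.48 CPM in that order. With each animal left out in turn, DAB2IP was called in 4 of 14 fits, FLVCR2, LOC100847951 and LOC101903668 in 5 each and PIK3R3 in 2. FSCN1 was called in 6 of these fits and KIAA1324L in 7, each with FDR up to 0.163.

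A pair of ribosomal RNA genes rose apart from the TRGC group. RN18S1, annotated as 18S ribosomal RNA, lay at 375 to 1138 CPM (median 526) at day 13 and at 635 to 2203 CPM (median 818) at day 28, with 10 of the day 13 libraries below all those of day 28. It rose by 0.81 ± 0.14 (FDR = 0.0365) in 13 of 14 animals. LOC112444653, a ribosomal RNA gene next to it in RefSeq, lay at 3.11 to 11.1 CPM (median 4.58) and then at 8.61 to 30.8 CPM (median 12.5), a rise of 1.48 ± 0.18 (FDR = 0.00261) in 14 of 14. For both genes animal 40 was the highest at day 13 and animal 54 at day 28. These libraries had the largest median absolute deviation of their day. The libraries were made with a messenger RNA kit, and how these ribosomal RNA counts arose was not tested. Without animals 40 and 54 both genes were still higher, and whether any ribosomal carry-over moved with handling by day was not tested. The correlation of change with TRGC3 was -0.195 for LOC112444653 (adjusted permutation p = 0.551) and -0.335 for RN18S1 (0.285).

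Lipid desaturase genes were also called. SCD, stearoyl-CoA desaturase, which makes monounsaturated fatty acids, lay at 42 to 88.4 CPM (median 62.3) at day 13 and 55.2 to 101.96 CPM (median 79.1) at day 28. Its rise was 0.35 ± 0.07 (FDR = 0.0991) in 12 of 14 animals, the last call inside the threshold. The next gene by p, LOC100139881, had an FDR of 0.112. FADS1, a desaturase of polyunsaturated fatty acids, lay at 13.4 to 33 CPM (median 26.1) and then at 18.6 to 38.9 CPM (median 32.6), and rose by 0.28 ± 0.06 (FDR = 0.0717) in 12 of 14. SCD was called in 2 of the 14 fits that left out 1 animal and FADS1 in 3. In the cholesterol list 24 of 27 genes were tested and 0 were called by edgeR, DESeq2 or voom, 22 of 24 changes were above 0 and the median was 0.14. At an unadjusted p under 0.05, 9 of these 24 were higher and 0 lower, against 3.7% of all genes higher. MSMO1, a sterol methyl oxidase, gave 0.16 ± 0.05 (FDR = 0.408), SQLE, squalene epoxidase, gave 0.16 ± 0.05 (FDR = 0.462), INSIG1, the sterol-sensing feedback protein, gave 0.14 ± 0.05 with higher values in 13 of 14 animals (FDR = 0.477), and FDFT1, squalene synthase, gave 0.20 ± 0.07 (FDR = 0.485). In the list of fatty acid oxidation genes, 28 of 35 were tested, edgeR called 0 and the median was 0.02. At an unadjusted p under 0.05, 1 was higher and 3 were lower, against 3.7% and 4.08% of all genes. PDK4, a kinase that limits pyruvate oxidation, gave -0.51 ± 0.14, lower in 12 of 14 animals (FDR = 0.331). It was called by DESeq2 (adjusted p = 0.0503) and by edgeR without animals 40 and 54, but not by voom.

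The lower genes were GPR82 and ADD2. GPR82, an orphan G protein-coupled receptor, lay at 5.98 to 18.2 CPM (median 12.4) at day 13 and at 4.49 to 15.8 CPM (median 8.66) at day 28. The ranges overlapped widely, but it was lower in 14 of 14 animals, and its change was -0.55 ± 0.09 (FDR = 0.0208). ADD2, beta-adducin of the red cell membrane skeleton, lay at 0.165 to 7.71 CPM (median 0.842) and then at 0.0774 to 1.64 CPM (median 0.282), a change of -1.58 ± 0.30 (FDR = 0.0649) with lower values in 12 of 14. ADD2 was called in 7 of the 14 fits that left out 1 animal, with FDR up to 0.194. Red cell markers are given beside it. The summed level of ALAS2, HBB, HBA and SLC4A1 ran from 228 to 28039 CPM (median 2925) at day 13 and from 88 to 8356 CPM (median 754) at day 28, with ranges that overlapped and no member called by edgeR, and its part in the change of ADD2 was not tested.

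In the list of erythroid and heme synthesis genes, 43 of 49 were tested and edgeR called 0. The median change was -0.13, but the middle of the list was wide, from -1.16 to -0.02 between quartiles. At an unadjusted p under 0.05, 15 of 43 were lower and 1 higher, against 4.08% of all genes lower. SLC25A37, the mitochondrial iron importer mitoferrin, gave -1.06 ± 0.28 (FDR = 0.272). SLC4A1, the red cell anion exchanger, gave -1.64 ± 0.48 (FDR = 0.362) and HEMGN, a nuclear protein of erythroid precursors, gave -1.32 ± 0.39 (FDR = 0.373). ANK1, red cell ankyrin, gave 0.56 ± 0.15 (FDR = 0.273). The changes were unequal between supplements: SLC4A1 gave -3.37, -2.34 and -0.46 in AAC, COMBO and INR animals, and HEMGN gave -2.80, -1.65 and -0.30 (unadjusted p between supplements 0.00639 and 0.00396 by edgeR, both at an FDR of 0.803). SLC25A37 ran the other way, at -0.41, -0.76 and -1.59. DESeq2 called 7 genes of the list lower, these 3 among them, and ANK1 higher, and voom called 0.

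The list of eosinophil and basophil markers had the lowest median of all lists, -0.36, with 15 of 27 genes tested, 0 called by edgeR and 14 of 15 changes below 0. At an unadjusted p under 0.05, 7 of 15 were lower and 0 higher, against 4.08% of all genes lower and 3.7% higher. MS4A2, the beta chain of the high-affinity IgE receptor of basophils and mast cells, lay at 2.53 to 30.5 CPM (median 9.50) at day 13 and at 1.63 to 8.53 CPM (median 4.55) at day 28, a change of -0.93 ± 0.20 with lower values in 12 of 14 animals (FDR = 0.112). GATA2, a transcription factor of basophils and mast cells, had medians of 11.2 and 6.04 CPM and gave -0.61 ± 0.16 (FDR = 0.291). HRH4, a histamine receptor, gave -0.45 ± 0.12 (FDR = 0.298) and CYSLTR2, a leukotriene receptor, gave -0.36 ± 0.09 (FDR = 0.238). The eosinophil markers IL5RA and CCR3 gave -0.02 (FDR = 0.992) and 0.10 (FDR = 0.882). DESeq2 called MS4A2, GATA2, HRH4 and CYSLTR2 lower, and voom called MS4A2.

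**Figure D3:**
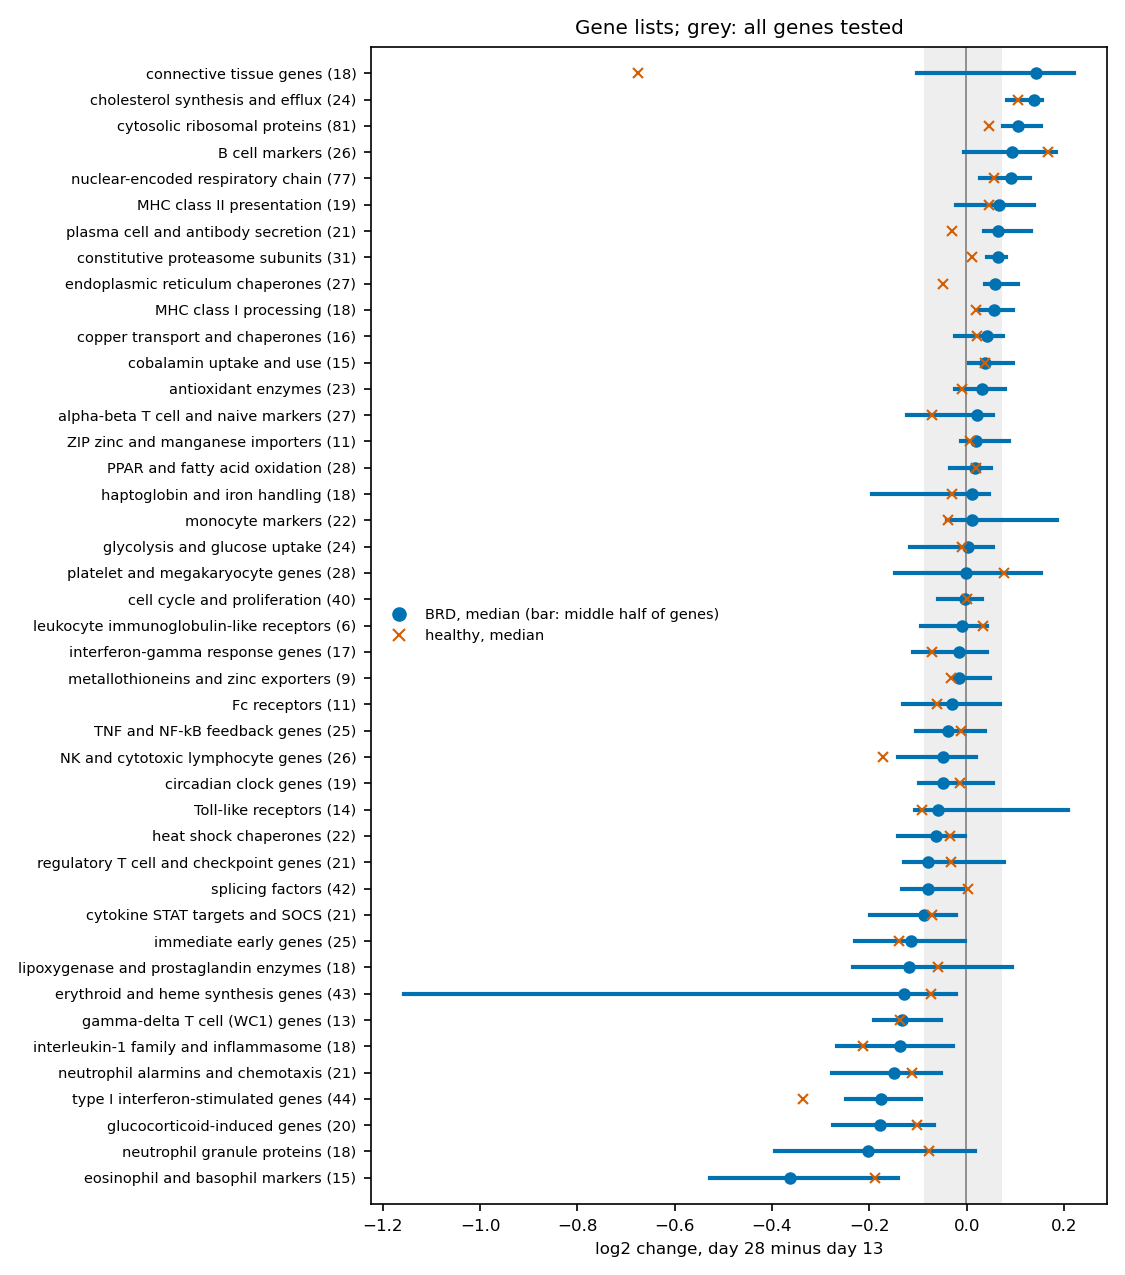
Median log2 change from day 13 to day 28 in each gene list, with the number of genes tested in brackets. Blue points and bars are the median and the span between quartiles over genes in the 14 BRD cattle, orange crosses are medians in the 11 healthy cattle, and the grey band is the span between quartiles over all genes tested; in BRD cattle the eosinophil and basophil list lies lowest at -0.36 and the erythroid list has the widest span.

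Of 44 lists, 43 had a tested member and COX6B2, in the respiratory chain list, was the single gene that edgeR called in any of them. DESeq2 called members of 16 lists, voom of 2, and edgeR without animals 40 and 54 of 6. Type I interferon-stimulated genes gave a median of -0.18, with 37 of 44 tested members below 0, and at an unadjusted p under 0.05 there were 0 in either direction, and 0 called by edgeR, DESeq2 or voom. IFIT2 gave -0.46 ± 0.25 (FDR = 0.697), whereas DDX58, which encodes the RNA sensor RIG-I, gave 0.57 ± 0.34 (FDR = 0.731). SOCS1, a feedback inhibitor of cytokine signalling, gave -0.59 ± 0.21 (FDR = 0.50). In the neutrophil lists edgeR called 0 genes. Neutrophil alarmins and chemotaxis genes had a median of -0.15 over 21 tested, with 6 lower and 0 higher at an unadjusted p under 0.05, against 4.08% of all genes lower. CXCR2, the neutrophil chemokine receptor, ran from 58 to 195 CPM at day 13 (median 74.4) and from 18.3 to 124.13 CPM at day 28 (median 48.4), a change of -0.66 ± 0.23 (FDR = 0.485). CXCL8, its ligand, gave -0.41 ± 0.15 (FDR = 0.509). The neutrophil calcium-binding proteins S100A8 and S100A9 gave 0.05 (FDR = 0.946) and -0.07 (FDR = 0.918). Neutrophil granule genes had a median of -0.20 over 18 tested, and MMP9, a gelatinase, gave -0.54 ± 0.18 (FDR = 0.437). ARG1, arginase, gave -1.43 ± 0.50 (FDR = 0.485), and DESeq2 called it lower (adjusted p = 0.0729), while voom did not. ARG1 was lower in 9 of 14 animals and changed by -3.19, -1.98 and -0.17 in AAC, COMBO and INR animals. The red cell genes SLC4A1 and HEMGN had the same order and SLC25A37 the reverse, and the cell source of ARG1 was not tested.

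Glucocorticoid-induced genes had a median of -0.18, with 19 of 20 below 0, 4 lower at an unadjusted p under 0.05 and 0 called by edgeR. Of all 16153 genes tested, 8091 were below 0 and 4.08% were lower at that p. DUSP1, a phosphatase induced by glucocorticoids, lay at 40.1 to 268 CPM (median 83.8) at day 13 and 29.4 to 117.52 CPM (median 58.6) at day 28, a change of -0.58 ± 0.15 with lower values in 12 of 14 animals (FDR = 0.239). TSC22D3, which encodes the glucocorticoid-induced leucine zipper protein, gave -0.27 ± 0.09 (FDR = 0.485). DESeq2 and edgeR without animals 40 and 54 called DUSP1 but not TSC22D3, and voom called neither. DUSP1 is also in the list of immediate early genes, which had a median of -0.11 over 25 tested, with 19 below 0. At an unadjusted p under 0.05, 6 of the 25 were lower and 1 higher, and edgeR called 0.

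Among lymphocyte lists, B cell markers had a median of 0.09 over 26 tested, 5 of them higher at an unadjusted p under 0.05 and 0 lower. Of all genes tested, 3.7% were higher and 4.08% lower at that p. PAX5, a master regulator of B cell identity, gave 0.19 ± 0.06 (FDR = 0.414), and SPIB gave 0.31 ± 0.13 (FDR = 0.567). Regulatory T cell and checkpoint genes had a median of -0.08 over 21 tested, with 8 above 0 and 13 below. At an unadjusted p under 0.05, 3 of these were lower and 0 higher. The alpha-beta T cell list had a median of 0.02 over 27 tested, with 14 above 0 and 13 below. At that p, 3 of its genes were lower and 1 higher, and edgeR called 0 in either list. CTLA4, an inhibitory receptor of T cells, gave -0.36 ± 0.10, lower in 12 of 14 animals (FDR = 0.298), and ICOS, a T cell costimulator of the alpha-beta T cell list, gave -0.19 ± 0.05, lower in 13 of 14 (FDR = 0.265). DESeq2 called both (adjusted p = 0.0511 and 0.0428), and voom called neither. Cytosolic ribosomal protein genes gave a median of 0.11, with 75 of 81 above 0 and 2 at an unadjusted p under 0.05. In the lists tied to the supplemented minerals edgeR and voom called 0 genes, and DESeq2 called 1, the zinc transporter gene SLC39A9, at 0.08 (adjusted p = 0.0508 by DESeq2). At an unadjusted p under 0.05, 2 of their members were higher and 3 lower by edgeR, against 3.7% and 4.08% of all genes. Medians were -0.02 over 9 metallothionein and zinc exporter genes, 0.02 over 11 zinc and manganese importers, 0.04 over 16 copper genes and 0.04 over 15 cobalamin genes. Of the cathelicidins, 7 genes were in the table and 0 passed the filter on low counts.

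The 11 healthy cattle with libraries on both days shared no library with these animals and received the same vaccines. Of these 3 received AAC, 4 COMBO and 4 INR, against 4, 3 and 7 of the BRD cattle, and the COMBO animals of each group came from different pens, so that pen and disease cannot be told apart among them. Fitted alone they gave 22 calls of 16184 genes (0.136%), 19 higher and 3 lower. All 30 genes called in BRD cattle changed in the same direction in healthy cattle, where 52% of all genes tested were above 0, and 25 of them had an unadjusted p under 0.05 there, against 8.03% of all genes. TRGC3 rose by 0.68 in healthy cattle (unadjusted p = 0.00108 by edgeR, higher in 10 of 11), TRGC4 by 0.66 (p = 0.00137, 11 of 11) and TRGC6 by 0.83 (p = 0.000386, 11 of 11). FCRL6 rose by 1.34 and GPR82 changed by -0.55, each in 11 of 11 animals. Genes called in both groups were FCRL6, AMZ1, COX6B2, LOC101903668 and GPR82, which are 16.7% of the BRD calls and 22.7% of the healthy calls.

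**Figure D4:**
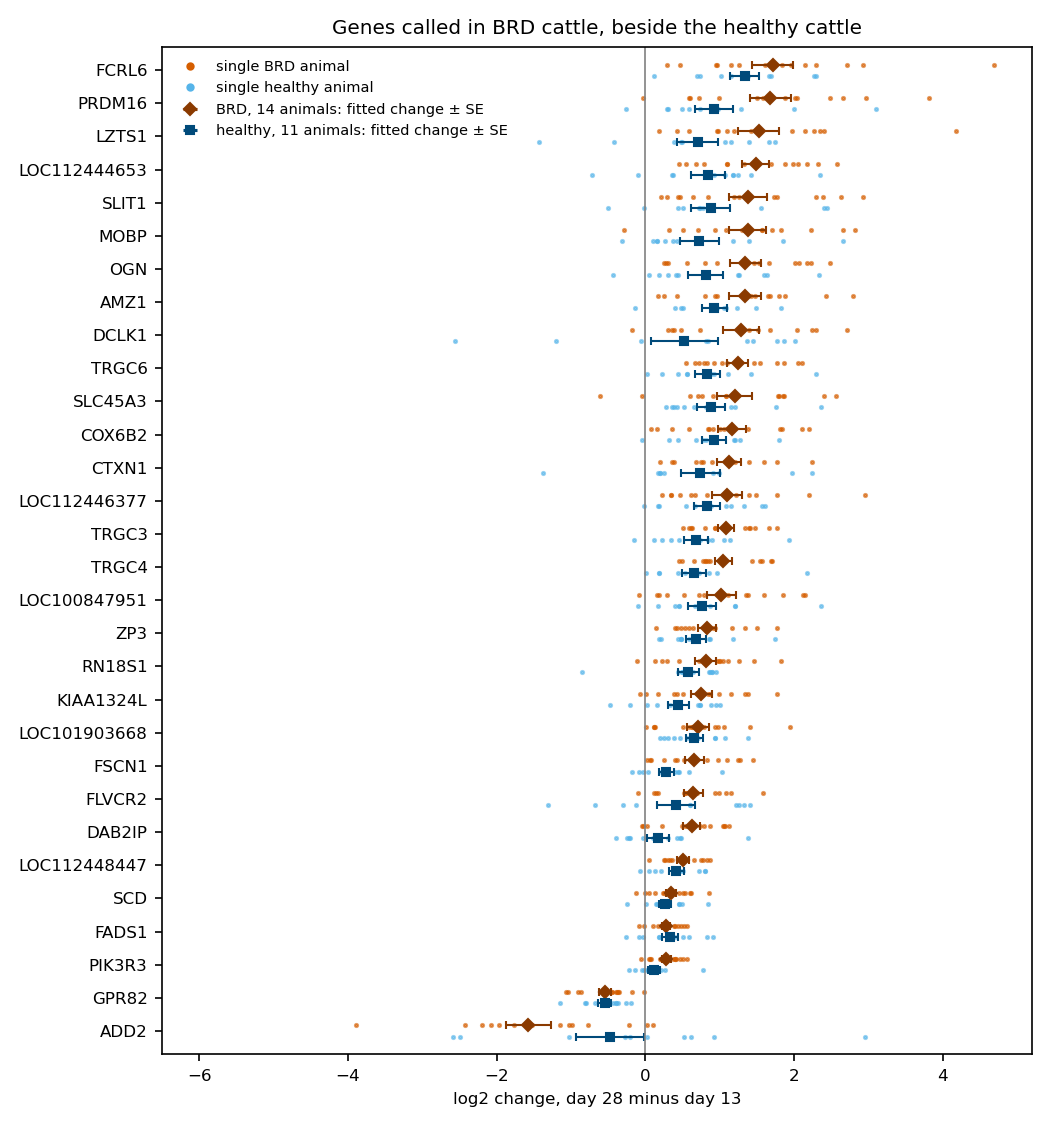
Log2 change from day 13 to day 28 of the 30 genes called in BRD cattle. Large symbols are fitted changes with their SE in 14 BRD (diamonds) and 11 healthy animals (squares) and dots are single animals; all 30 genes lie on the same side of 0 in both groups.

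Whether the change differed between BRD and healthy cattle was tested by an interaction over 50 libraries. Of 17090 genes, 0 were called by edgeR (0%), 287 had an unadjusted p under 0.05 (1.68%), DESeq2 called 2 and limma with voom called 0. The 30 genes were called in these same BRD cattle, a choice that by itself favours larger fitted changes there than in other animals, so differences for them are given as a description with no test. The BRD change minus the healthy change was 0.39 ± 0.20 (SE) for TRGC3, 0.76 ± 0.40 for PRDM16 and -0.00012 ± 0.15 for GPR82. The genes of smallest interaction p were KPNA1, LOC112442757, TARP and PANX2 with a more positive change in BRD cattle, and LOC112442706, LOC112442611, SLC38A4 and NUMBL with a more negative one, all at an FDR of 1. TARP was lower at day 28 in healthy cattle by 0.60 and higher in 3 of 11, and the difference between the groups was 3.43 ± 0.96 (unadjusted p = 0.00154).

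Supplements were pooled in the results above. A test of whether the change differed among AAC, COMBO and INR gave 0 calls of 16153 genes (0%) by edgeR and 0 by limma with voom, with 578 genes at an unadjusted p under 0.05 (3.58%) and the smallest FDR at 0.803, which 7317 genes shared. The 4 of smallest p were LOC616574, SLFN14, CA2 and ZSCAN16. TRGC3 rose by 0.97 in the 4 AAC animals, 0.95 in the 3 COMBO animals and 1.21 in the 7 INR animals. FCRL6 rose by 1.61, 1.63 and 1.82, and GPR82 changed by -0.69, -0.50 and -0.48 in the same order. ADD2 was more spread, at -2.62, -1.62 and -0.82. Each supplement fitted alone gave 0 calls, with 1274, 1087 and 602 genes at an unadjusted p under 0.05 in AAC, COMBO and INR.

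Levels on the other sampling days are given as a description. For TRGC3 the medians at days 0, 13, 28, 45 and 60 were 46.44, 27, 54.4, 66.4 and 59.1 CPM, and for TRGC6 40.7, 24.2, 50.2, 58.6 and 49.4 CPM, so that day 13 was the lowest of the 5 days. FCRL6, with 1.82, 0.672, 1.90, 2.13 and 1.79 CPM, PRDM16, with 9.56, 5.05, 16.3, 16.1 and 12 CPM, and OGN, with 14, 10.1, 24.3, 25.1 and 19 CPM, had the same low point. SCD and FADS1 followed another course: SCD had medians of 31.2, 62.3, 79.1, 64.5 and 55.6 CPM and FADS1 of 16.5, 26.1, 32.6, 31.5 and 28.7 CPM, lowest on day 0 and highest on day 28. GPR82 was highest on day 13, at 10.8, 12.4, 8.66, 9.16 and 8.00 CPM. HBB had medians of 103.25, 1906, 437, 1829 and 625 CPM, and MS4A2 of 3.83, 9.50, 4.55, 5.58 and 5.23 CPM, both highest on day 13. RN18S1 had medians of 596, 526, 818, 669 and 813 CPM, with 1 library at 10725 CPM on day 60.

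**Figure D5:**
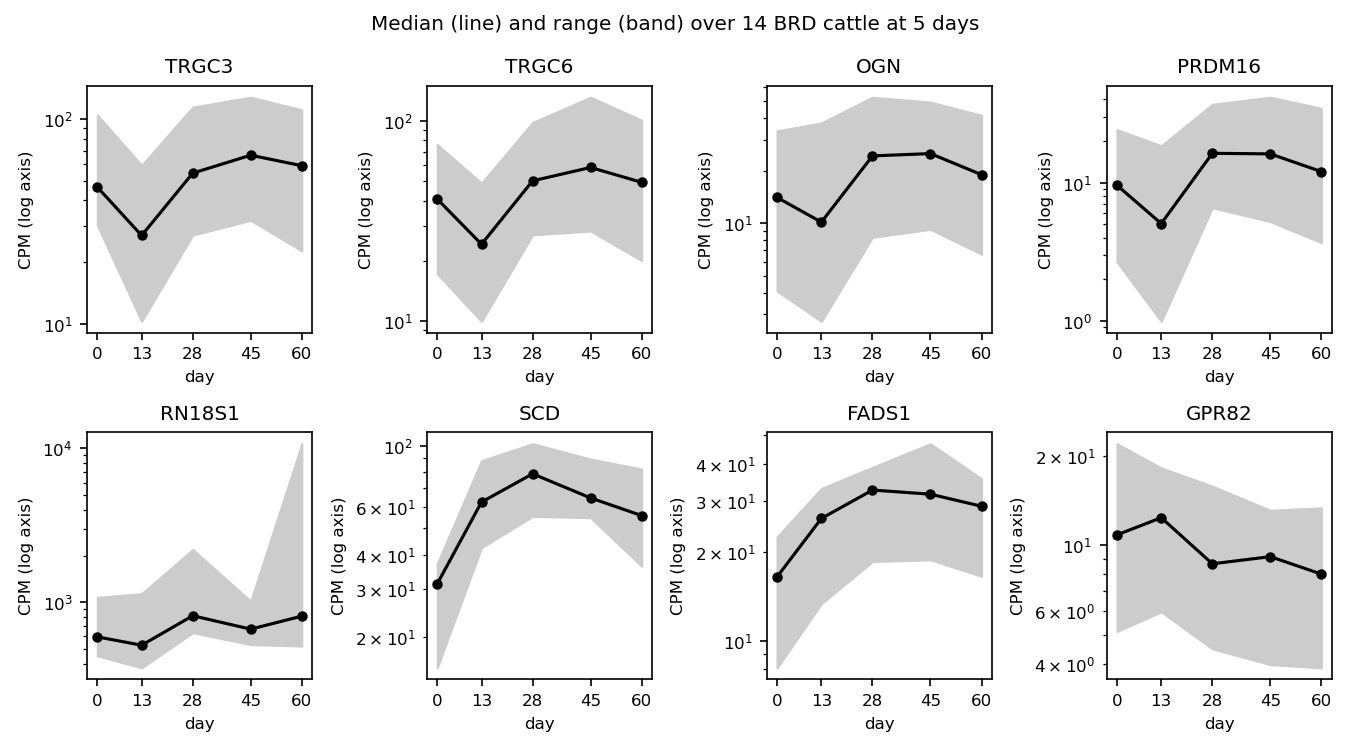
Median (line) and range (grey band) of 8 genes over the 14 BRD cattle at the 5 samplings, in CPM on log axes. TRGC3, TRGC6, OGN and PRDM16 are lowest on day 13, SCD and FADS1 are lowest on day 0 and highest on day 28, and GPR82 is highest on day 13.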

How the data were processed

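Whole blood in Tempus tubes was extracted and sequenced by the authors as paired 150-base reads from an Illumina Stranded mRNA kit. Per the labels, reads were checked with FastQC 0.11.9, trimmed with Trimmomatic 0.39, mapped with HISAT2 2.1.1 to ARS-UCD1.3, and assembled with StringTie 2.2.0. The authors deposited unnormalized counts for 32395 genes, which prepDE works out from transcript coverage and a set read length and which are not read tallies. Strand setting is not given in the sources used here, so antisense and overlapping genes may share reads.

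Groups followed the disease label, and pairs the animal number. Here filterByExpr, TMM factors, a common dispersion (0.0744, a biological coefficient of variation of 27.3%) and quasi-likelihood F-tests were run in R 4.3.3 with edgeR 4.0.16 on 16153 genes, with the animal as a block and a Benjamini-Hochberg FDR under 0.10. The TMM factors, common dispersion, quasi-likelihood F-tests and threshold are those the study names for edgeR. The filter function, the edgeR version, the block and the paired days were chosen here. The study names no filter function and an earlier edgeR version. It kept only genes that its mixed model also found, and that model was not run here. The SE was taken from the F statistic. CPM levels used TMM factors over all 70 libraries of BRD cattle. DESeq2 1.42.0, limma 3.58.1 with voom, RLE factors, other filters and sets of animals were alternatives. Correlations used 100000 permutations. Libraries of the same animal deviated together (r = 0.169 to 0.546, median 0.472, over 14 animals). Counts ranged from 34928094 to 54306034 per library, and no library was a copy of another.

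Members and lists were chosen with earlier results of these data known. Named genes were up to 12 higher and up to 12 lower calls of smallest p shared by 12 of 14 animals and with a symbol, up to 4 of largest change in each direction at 1 CPM or more, up to 4 of smallest p in each list with the cell type markers, and the 4 of smallest p in each direction for the interaction and 4 between supplements. Called genes outside these rules were named after their values were seen.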

Additional observations from a re-analysis of the deposited data

How the results depend on the processing

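The count of 30 calls was 20 to 33 with RLE factors, without a filter, with at least 1 CPM in 14 libraries, with a trended dispersion or with limma and voom. It moved to 198 with DESeq2, 14 at an FDR of 0.05, 56 over all 70 BRD libraries, 53 over the 50 BRD and healthy libraries and 77 without animals 40 and 54, and to 0 in AAC, COMBO or INR animals alone, where fewer animals were tested. Without the animal block, that is with the pairing ignored, 2 genes were called. Leaving out each animal in turn gave 15 to 38 calls, and it was 15 without animal 16, without animal 31 and without animal 41. Of the 30 genes, 14 were called in each of the 14 fits, TRGC3, TRGC4 and TRGC6 among them, and none of the 30 reversed under any alternative run. SCD and PIK3R3 were called in 2 of the 14, FADS1 and SLC45A3 in 3, DAB2IP in 4, and FLVCR2, LOC100847951 and LOC101903668 in 5. FSCN1 was called in 6, KIAA1324L and ADD2 in 7, DCLK1 in 8, SLIT1 and LOC112446377 in 9, and LZTS1 and MOBP in 10. In AAC animals alone SPIB was -0.040, SOX13 0.080, WC1.3 0.12 and WC1-12 0.17, each opposite in sign to its value over all animals; the cause was not tested. The 0 calls for BRD against healthy cattle stayed 0 in each alternative, the fit without the block included, except DESeq2, which gave 2; leaving out each of the 25 animals gave 0 to 0. The 0 calls between supplements stayed 0 in each alternative run. For genes under 1 CPM counting error is large, and the absence of a call says only that no change was detectable at this depth.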
